A study of Mus musculus with 4 samples.

Results

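The genes of the METTL family and of the m6A machinery were examined in mouse liver for peaks of H3K23pr, a mark in which lysine 23 of histone H3 carries a propionyl group. Members were the protein-coding autosomal genes of the GRCm38 RefSeq table whose symbol is Mettl followed by digits, with or without further letters, together with 17 named m6A genes. This gave 44 members of 20661 autosomal protein-coding genes, 27 of them with a Mettl symbol, and all 17 named genes were found. A further 8 genes carry a Mettl name only as a synonym, such as Eef1aknmt (Mettl13), and were not members. A peak was counted for a member when it overlapped the stretch from 5 kb below the gene start to 5 kb above the gene end by at least 1 bp, called the window here. The rule uses gene symbols only and no measured value.

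The chromatin came from liver of male C57BL/6 mice of 2 genotypes. The KO library was from mice with a hepatocyte-specific knockout of RPN11, the deubiquitylating subunit of the proteasome lid, and the WT library, named so in the sample titles, was from RPN11 flox/flox mice. Each genotype had 1 immunoprecipitate (IP) made with an H3K23pr antibody and 1 input library, 4 libraries in all, so every difference below is between these libraries and has no replicate check. The promoter that drives the deletion, the age of the mice, their diet and whether animals were pooled are not given in the sources used here. Cells other than hepatocytes keep an intact RPN11 gene in a hepatocyte-specific knockout. Because whole liver was used, fewer cells with the mark and less of the mark per cell cannot be told apart.

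m6A is the methylation of adenosine in RNA at the nitrogen numbered 6, the most common internal modification of mRNA. Writers place it, chiefly a nuclear complex in which METTL3 is the catalytic subunit and METTL14 its RNA-binding partner. Erasers remove it, and readers bind it and steer splicing, export, translation or decay of the transcript. METTL proteins share a methyltransferase fold that uses S-adenosylmethionine as methyl donor, but most of them modify other substrates, such as tRNA, ribosomal RNA or proteins. In liver, m6A is known for its part in the control of lipid metabolism transcripts. By these roles the members were 10 writers, 2 erasers, 9 readers and 23 other Mettl genes.

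No peak of either genotype touched the promoter stretch of any member with a listed start site (all genes 0.219% in KO and 0.541% in WT). Within 2 kb of that site, 4 members had a KO peak (all genes 4.73%) and 1 had a WT peak (all genes 8.60%). Promoters, from 250 bases before to 50 bases after the start, came from RefSeq on GRCm38.p6, where 34 of the 44 members matched. The promoters of the 4 members whose peaks lay closest to the start are shown with that of Mettl3, the catalytic writer. They are written 5′ to 3′ on the strand of the gene. Capitals mark matches on either strand to short sequences common in promoters, namely CCGGAA, the letters GGGCGG and the box CCAAT, and matches can adjoin or overlap one another.
Mettl18: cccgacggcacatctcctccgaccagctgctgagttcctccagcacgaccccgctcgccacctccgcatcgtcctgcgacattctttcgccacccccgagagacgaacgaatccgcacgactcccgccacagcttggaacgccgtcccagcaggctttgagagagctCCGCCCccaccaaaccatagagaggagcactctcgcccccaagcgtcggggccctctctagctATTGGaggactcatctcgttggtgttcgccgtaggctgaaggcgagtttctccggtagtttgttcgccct
Mettl6: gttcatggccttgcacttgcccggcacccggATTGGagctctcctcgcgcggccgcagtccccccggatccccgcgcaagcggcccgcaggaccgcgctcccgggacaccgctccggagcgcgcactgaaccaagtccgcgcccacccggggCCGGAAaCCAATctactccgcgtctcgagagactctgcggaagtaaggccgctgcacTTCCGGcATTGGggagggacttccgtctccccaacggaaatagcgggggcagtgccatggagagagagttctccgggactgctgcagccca
Ythdc1: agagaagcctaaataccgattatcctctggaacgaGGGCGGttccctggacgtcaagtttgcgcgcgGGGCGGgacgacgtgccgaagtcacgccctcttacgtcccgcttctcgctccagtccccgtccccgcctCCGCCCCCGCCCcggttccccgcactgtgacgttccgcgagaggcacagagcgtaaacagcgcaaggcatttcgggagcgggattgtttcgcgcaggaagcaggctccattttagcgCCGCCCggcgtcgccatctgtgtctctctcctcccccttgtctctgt
Mettl11b: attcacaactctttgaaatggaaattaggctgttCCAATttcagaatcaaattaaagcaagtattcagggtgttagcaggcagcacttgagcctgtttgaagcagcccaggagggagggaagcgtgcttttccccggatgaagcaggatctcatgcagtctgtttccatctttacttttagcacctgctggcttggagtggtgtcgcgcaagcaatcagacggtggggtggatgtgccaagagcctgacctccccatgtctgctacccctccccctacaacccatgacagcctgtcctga
Mettl3: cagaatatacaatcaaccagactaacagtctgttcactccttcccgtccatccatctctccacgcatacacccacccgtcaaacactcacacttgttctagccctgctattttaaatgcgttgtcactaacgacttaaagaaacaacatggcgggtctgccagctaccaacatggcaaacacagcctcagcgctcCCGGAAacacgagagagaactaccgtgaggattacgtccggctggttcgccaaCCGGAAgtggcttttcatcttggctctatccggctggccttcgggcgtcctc

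These stretches lie at chr1:163994639-163994938 for Mettl18 (plus strand), chr14:31494975-31495274 for Mettl6 (minus strand), chr5:86804016-86804315 for Ythdc1 (plus strand), chr1:163725183-163725482 for Mettl11b (minus strand) and chr14:52305075-52305374 for Mettl3 (minus strand). Most were rich in CpG. The ratio of observed to expected CpG was 1.00 for Mettl18, 0.920 for Mettl6, 1.16 for Ythdc1 and 0.897 for Mettl3, but 0.256 for Mettl11b. Over the 34 member promoters the median ratio was 0.866, against 0.586 over 16456 promoters of autosomal protein-coding genes. CCGGAA occurred in 11 of the 34 promoters (32.4%), against 19.4% of all. The letters GGGCGG occurred in 17 promoters, against 46.8% of all. The box CCAAT occurred in 14 (41.2%), against 38.9%. Where a gene had several listed starts, 1 promoter was used here.

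The members carried 37 KO peaks and 62 WT peaks, and these fell on 24 members in KO and 29 in WT. A KO peak was thus found on 54.5% of members, where 34.3% of all autosomal protein-coding genes had one, and a WT peak on 65.9%, where the share over all genes was 49.4%. The exact 95% binomial intervals of the member shares were 38.8 to 69.6% in KO and 50.1 to 79.5% in WT, and both all-gene shares lay below them. Like all intervals here they cover counting error only. Of the 44 members, 19 had peaks of both genotypes, 5 of KO only, 10 of WT only and 10 of neither. Over all genes these shares were 25.2%, 9.07%, 24.2% and 41.5%, beside 43.2%, 11.4%, 22.7% and 22.7% of the members.

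Long windows catch more peaks, and the rate per Mb of window gave another picture. The member windows held 15.6 KO peaks per Mb (exact 95% Poisson interval 10.99 to 21.5), where all gene windows held 17.9, and 26.2 WT peaks per Mb (20.1 to 33.5), where all gene windows held 23.7. Both all-gene rates fell inside the members' intervals. At those rates the member windows would hold 42.4 KO and 56.25 WT peaks. The median member window was 33.99 kb and the median window of all genes 27.5 kb, while the means were 54.1 and 58.5 kb. Fto alone accounts for 365.07 kb. The KO to WT ratio of peak number over the members was 0.597 (exact binomial 95% interval 0.386 to 0.911), and the ratio over all gene windows, 0.754, fell inside that interval.

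**Figure D1:**
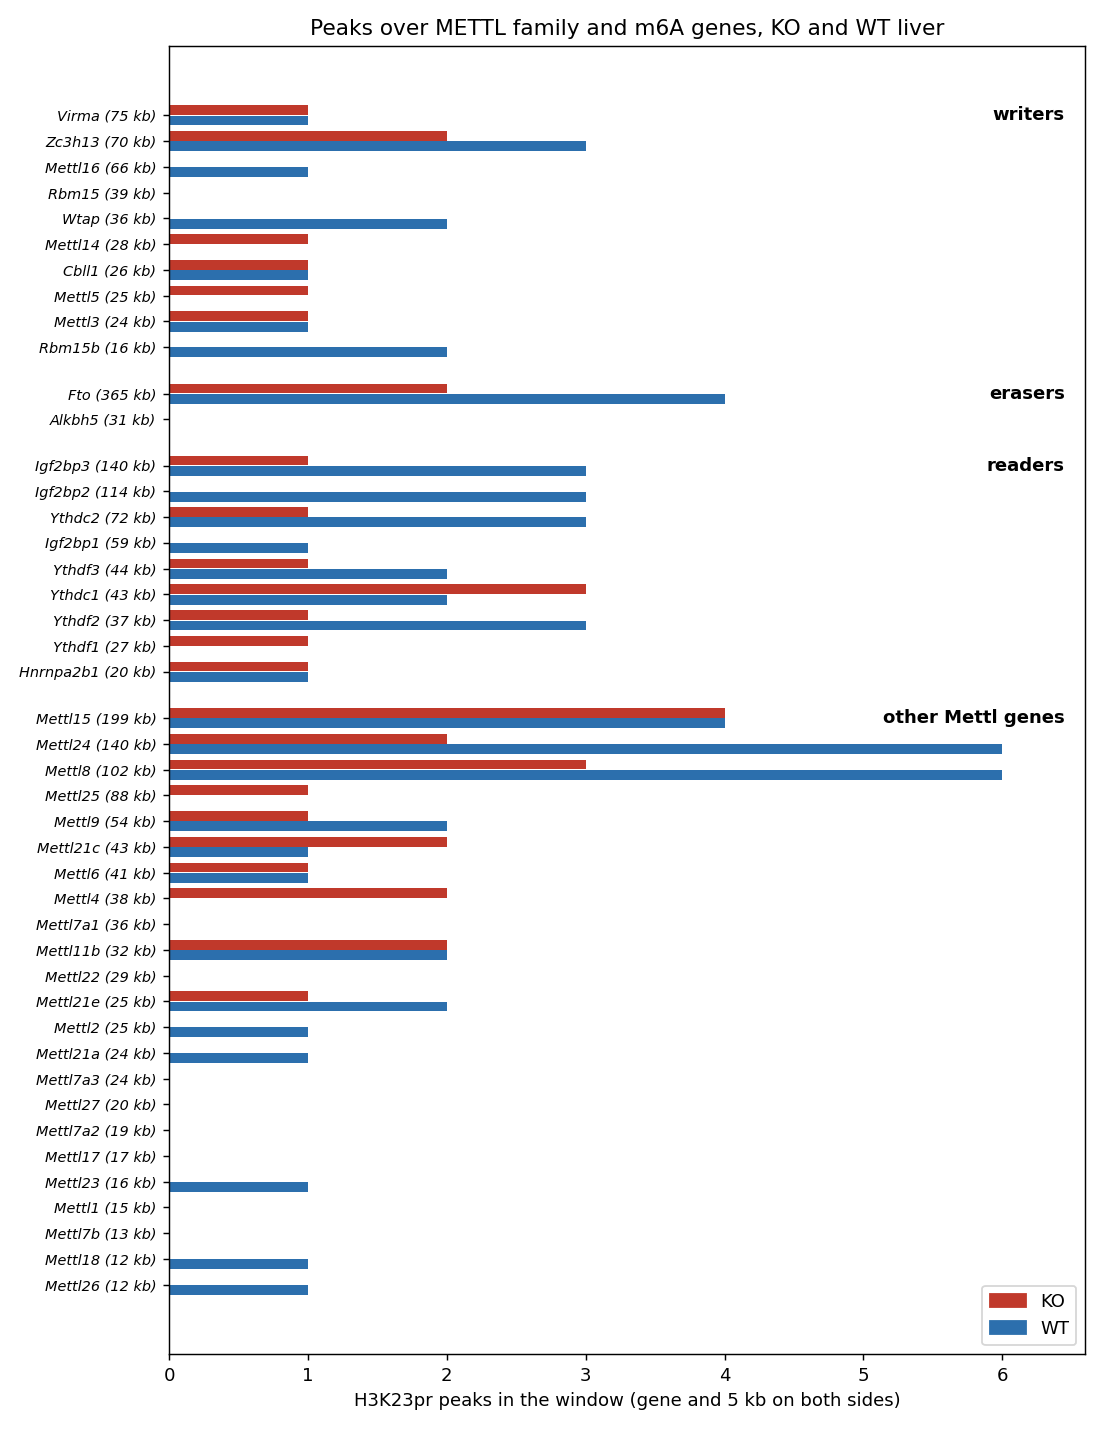
Bars give the number of KO (red) and WT (blue) H3K23pr peaks in the window of each of the 44 members, grouped by role and ordered by window length, which stands beside each name. The longest bars are the 6 WT peaks of Mettl8 and of Mettl24, and 10 members have no bar.

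Window length was then taken in 4 classes, set after the members' values were seen. Among 22 members with windows of 20 to 50 kb, 13 had a KO peak (59.1%, interval 36.4 to 79.3%), where 28.8% of the 7577 genes of that class did, and 12 had a WT peak (54.5%), against 47.1%. In this class the members had 26.1 KO peaks per Mb (15.4 to 41.2), where all genes had 14.5, and 27.5 WT peaks per Mb (16.6 to 42.9), where all genes had 22.4. In the 6 members with windows of 100 kb or more the KO rate was 11.3 per Mb (5.85 to 19.8), where all genes of the class had 19.5, and the WT rate 24.5 (16.0 to 35.9), against 24.0. Of those 6, 5 had a KO peak (all genes 84.2%) and 6 a WT peak (95.5%). Windows under 20 kb gave 1 of 9 members with a KO peak (all genes 12.1%) and 5 of 9 with a WT peak (23.2%), at 7.18 KO peaks per Mb (0.182 to 40.0), where all genes had 10.9, and 43.1 WT peaks per Mb (15.8 to 93.8), where all genes had 19.9. Windows of 50 to 100 kb gave 5 of 7 in KO (57.8%) and 6 of 7 in WT (78.0%), at 12.4 KO peaks per Mb (4.54 to 26.9), against 18.8, and 22.7 WT peaks per Mb (11.3 to 40.6), against 25.5. The members' KO rate was thus above that of all genes in the class of 20 to 50 kb and below it in the other 3. Its interval left out the all-gene rate in the class of 20 to 50 kb and held it in the other 3.

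**Figure D2:**
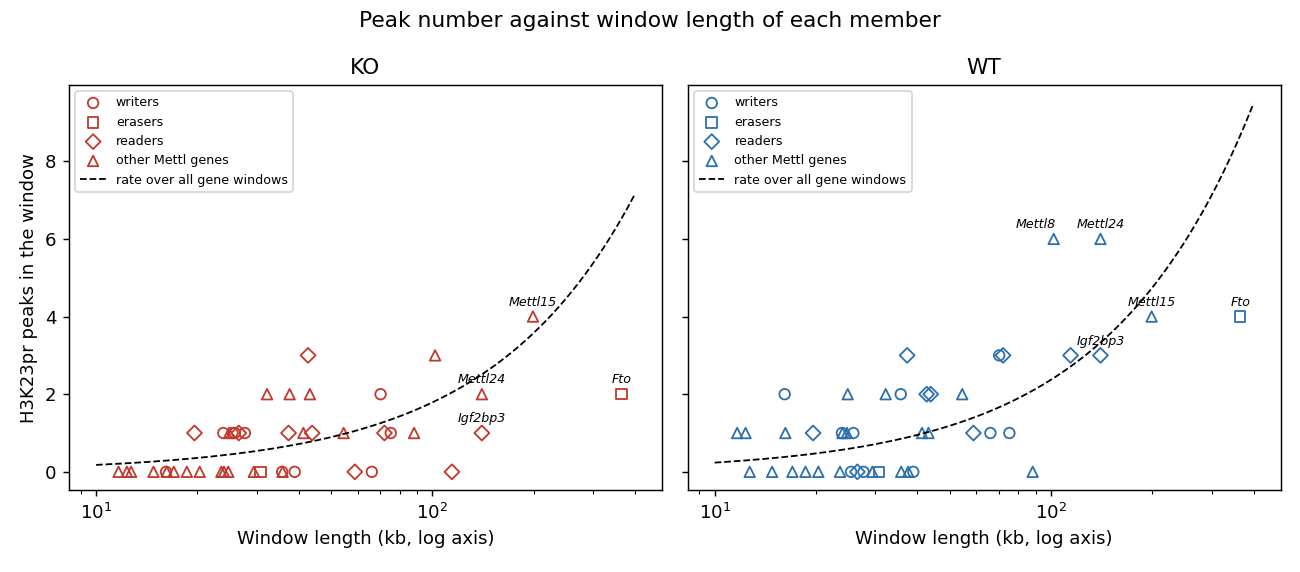
Each point is a member, with the window length in kb on a log axis and the number of peaks in the window on the y axis, for KO (left) and WT (right). The dashed line is the rate over all gene windows, 17.9 peaks per Mb in KO and 23.7 in WT, and Fto, at 2 KO and 4 WT peaks, lies below it in both panels.

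Among the writers, 6 of 10 had a KO peak (all genes 34.3%) and 7 of 10 a WT peak (all genes 49.4%), with 7 KO and 11 WT peaks. Mettl3 (chromosome 14, 52294841 to 52308741, mm10), the catalytic subunit, had 1 KO peak at 52291167 to 52291272 and 1 WT peak at 52294808 to 52294955, each with 5 IP fragments at the summit. The caller's fold was 3.83 in KO and 3.55 in WT, over backgrounds of 0.568 and 0.692 fragments, which are the medians of the whole lists. Such folds describe peaks within a list and do not compare the genotypes. The KO peak lay 3.57 kb below the lower-coordinate end of Mettl3 and inside the neighbouring gene Tox4, and the WT peak lay across that end, also inside Tox4. Mettl3 is read from the minus strand, so both sites were beyond or at the far end of the gene and more than 10 kb from its start, with 3.54 kb between them. The peaks in the Mettl3 window can therefore be assigned to Tox4 as well.

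Mettl14, which encodes the RNA-binding partner of METTL3, had 1 KO peak of 4 fragments at 123377481 to 123377573 on chromosome 3, with a fold of 3.19, and no WT peak. Wtap, whose product holds the complex in nuclear speckles, went the other way, with no KO peak and 2 WT peaks of 4 fragments each. Rbm15 and Rbm15b encode related proteins that bring the complex to RNA. Rbm15 had no peak in either genotype, while Rbm15b had none in KO and 2 in WT, with 4 and 7 fragments. The taller WT peak of Rbm15b, at 106890494 to 106890757 on chromosome 9, had a fold of 4.73 and lay 3.42 kb upstream of the gene and inside Manf.

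Virma, the subunit that guides methylation along the transcript, had 1 KO peak of 4 fragments and 1 WT peak of 7 fragments, 4.43 kb apart. The WT peak (chromosome 4, 11498532 to 11498682) had a fold of 4.73 and the KO peak (11503110 to 11503186) a fold of 3.19. Zc3h13, which keeps the complex in the nucleus, had KO peaks of 5 and 4 fragments and WT peaks of 5, 6 and 4 fragments. Its stronger KO peak lay 4.61 kb below the gene and inside Cpb2. Cbll1, the complex member also known as HAKAI, had 1 KO peak of 4 fragments inside the gene and 1 WT peak of 5 fragments 201 bp beyond its far end.

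The remaining writers act outside that complex. Mettl5, the methyltransferase of the small ribosomal subunit RNA, had 1 KO peak of 6 fragments (chromosome 2, 69878416 to 69878505, fold 4.35) and no WT peak. Mettl16, which methylates U6 RNA and hairpins of the Mat2a transcript, had no KO peak and 1 WT peak of 5 fragments (fold 3.55). The writers thus gave 4 genes with peaks of both genotypes, 2 of KO only, 3 of WT only and 1 of neither. Their rates were 17.3 KO peaks per Mb (6.95 to 35.6) and 27.2 WT peaks per Mb (13.6 to 48.6), intervals that hold the all-gene rates.

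The erasers divided. Fto (chromosome 8, 91313367 to 91668433), a demethylase gene known for its link to body weight, had KO peaks of 4 and 6 fragments and WT peaks of 6, 4, 7 and 6 fragments. All 6 peaks lay inside the gene and more than 150 kb from its start. The KO peak of 6 fragments (91501626 to 91501721) had a fold of 4.29 and the WT peak of 7 fragments (91626915 to 91627048) a fold of 4.62. A window as long as that of Fto would hold 6.53 KO and 8.66 WT peaks at the all-gene rates, and the exact Poisson intervals of its 2 KO and 4 WT peaks, 0.242 to 7.22 in KO and 1.09 to 10.2 in WT, hold those values. Alkbh5, the other demethylase gene (chromosome 11, 60537683 to 60558512), had no peak in either genotype, where 0.551 KO and 0.732 WT peaks would fall at the all-gene rates. An absent peak over so short a window does not separate Alkbh5 from genes at large.

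The readers had a KO peak in 7 of 9 genes (all genes 34.3%) and a WT peak in 8 of 9 (all genes 49.4%), and none was without any peak, where 41.5% of all genes were. They held 9 KO and 18 WT peaks, or 16.2 per Mb in KO (7.41 to 30.8) and 32.4 in WT (19.2 to 51.2), and these intervals hold the all-gene rates of 17.9 in KO and 23.7 in WT. The KO peaks were fewer but included the reader summits with the most fragments, a count that is not scaled between the libraries. Summits of 6 fragments or more were found in 4 of the 9 KO peaks and 5 of the 18 WT peaks, and the highest were 8 fragments in KO and 6 in WT. The other Mettl genes went the other way, with 5 of 19 KO and 17 of 29 WT peaks of that height. Over all members it was 11 of 37 KO and 28 of 62 WT peaks. The share over all gene windows at 6 fragments was not computed, so these counts have no background beside them.

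Ythdf2, the reader that promotes decay of methylated mRNA, had 1 KO peak of 8 fragments and WT peaks of 4, 5 and 5 fragments. The KO peak (chromosome 4, 132199910 to 132200052) had a fold of 5.74 and was 364th of the 41907 KO peaks by caller p. It lay 12.3 kb into the gene and 7.63 kb from the nearest WT peak. Ythdc1, the nuclear reader that acts in splicing and export, had KO peaks of 4, 7 and 4 fragments and WT peaks of 4 and 4 fragments. Its KO peak of 7 fragments (chromosome 5, 86802719 to 86802806, fold 5.10) was centred 1.504 kb upstream of the start shown above. All 3 KO peaks of Ythdc1 were in the flanks and both WT peaks inside the gene.

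Ythdf3 had 1 KO peak of 6 fragments (fold 4.46) and WT peaks of 4 and 5 fragments, all inside the gene. Ythdf1, linked to translation of methylated mRNA, had 1 KO peak of 5 fragments (fold 3.38), 1.87 kb downstream of its start, and no WT peak. Ythdc2, a reader with a helicase domain, had 1 KO peak of 4 fragments and WT peaks of 6, 4 and 4 fragments. The closest KO and WT peaks of Ythdc2 were 31.9 kb apart. Hnrnpa2b1, a nuclear RNA-binding protein gene, had 1 KO peak of 6 fragments inside the gene (chromosome 6, 51462368 to 51462441, fold 4.46) and 1 WT peak of 4 fragments upstream of it, inside Cbx3.

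The Igf2bp readers, which stabilise their target mRNAs, held mostly WT peaks, and WT peaks were also the more numerous over all gene windows (26654 against 20088). Igf2bp2 had no KO peak and WT peaks of 6, 6 and 5 fragments. Igf2bp3 had 1 KO peak of 4 fragments and WT peaks of 6, 5 and 6 fragments, and 2 of the 3 WT peaks also lie in Malsu1. Igf2bp1 had no KO peak and 1 WT peak of 4 fragments, 1.46 kb from the lower-coordinate end of the gene. In the 114.29 kb window of Igf2bp2, 2.04 KO peaks would fall at the all-gene rate, and the exact Poisson interval of a count of 0 reaches 3.69. For Igf2bp1 and Igf2bp3 that rate would give 1.05 and 2.51 KO peaks, which the intervals of their counts also hold.

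**Figure D3:**
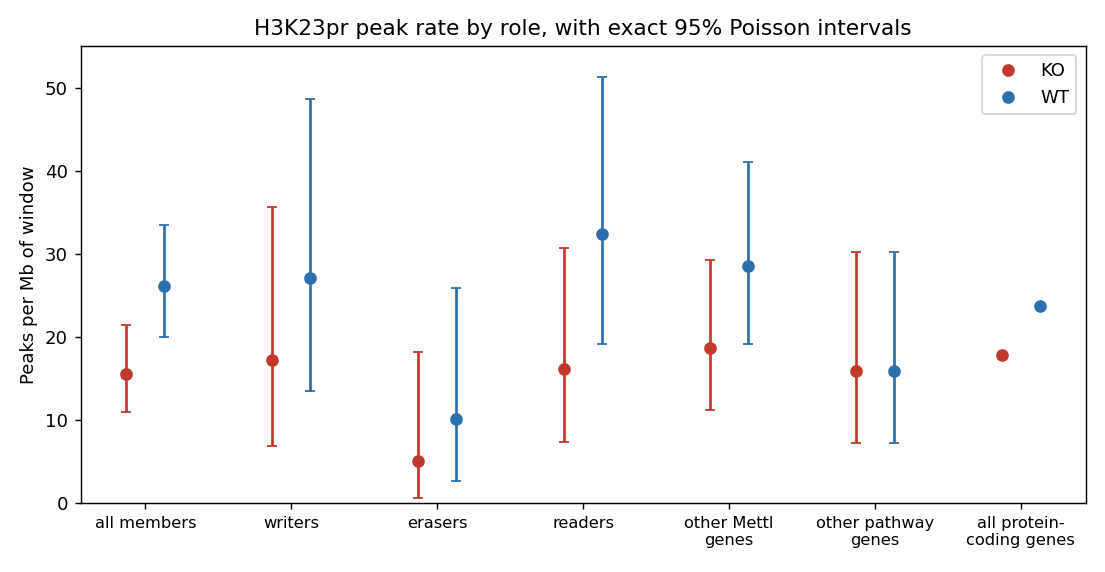
Points give the H3K23pr peaks per Mb of window for all members, the 4 roles, the other pathway genes and all autosomal protein-coding genes, KO in red and WT in blue, and bars are exact 95% Poisson intervals. Every interval of a role holds the all-gene rate of its genotype, and the erasers are lowest, at 5.05 in KO and 10.1 in WT.

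The other Mettl genes had a KO peak in 10 of 23 (all genes 34.3%) and a WT peak in 13 of 23 (all genes 49.4%), with 19 KO and 29 WT peaks. Of the 23, 8 had peaks of both genotypes, 2 of KO only, 5 of WT only and 8 of neither, where the shares over all genes were 25.2%, 9.07%, 24.2% and 41.5%. Mettl15, Mettl24 and Mettl8, the longest of these genes, had 4, 2 and 3 KO peaks and 4, 6 and 6 WT peaks. Mettl15, which modifies the RNA of the small mitochondrial ribosomal subunit, had KO peaks of 6, 6, 4 and 5 fragments and WT peaks of 4, 5, 5 and 6 fragments. The 4 WT peaks of Mettl15 lay between 109162688 and 109180656 on chromosome 2, while the nearest KO peak was 31.2 kb away. Mettl8, a tRNA methyltransferase gene of mitochondria, had KO peaks of 5, 5 and 5 fragments and WT peaks of 6, 6, 6, 7, 6 and 6 fragments. The WT peak at 71060593 to 71060689 lay 4.2 kb above the gene and inside Dcaf17. Another WT peak of 6 fragments, at 71034445 to 71034625, had a fold of only 2.86. At the all-gene rates 1.82 KO and 2.42 WT peaks would fall in the Mettl8 window, within the exact Poisson intervals of 0.619 to 8.77 in KO and 2.202 to 13.1 in WT. The 3 KO peaks of Mettl8 lay together, between 70968885 and 70978961 on chromosome 2 near the far end of the gene. WT had 1 peak near that end, at 70964382 to 70964545, which lay 16 bp outside the gene. Mettl24 had KO peaks of 4 and 4 fragments and WT peaks of 6, 4, 6, 4, 6 and 4 fragments.

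Of the other tRNA methyltransferase genes, Mettl6 had the tallest KO peak of any member. It held 9 fragments at 31496478 to 31496624 on chromosome 14 (fold 5.64), while WT had 1 peak of 6 fragments inside the gene (fold 2.86). The KO peak was centred 1.51 kb upstream of the Mettl6 start and inside the neighbouring gene Eaf1. Mettl2 had no KO peak and 1 WT peak of 5 fragments, and Mettl1, which methylates guanosine in tRNA, had no peak in either. Mettl4, which methylates U2 RNA, had KO peaks of 5 and 4 fragments (the stronger with a fold of 3.83) and no WT peak.

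Mettl21a and Mettl21e, which encode protein methyltransferases, held the 2 tallest WT summits of any member. Mettl21a, whose product methylates HSP70 chaperones, had no KO peak and 1 WT peak of 10 fragments (chromosome 1, 64622148 to 64622316, fold 5.54), 4.47 kb upstream of its start. Mettl18, which methylates a histidine of a ribosomal protein, had no KO peak and 1 WT peak of 7 fragments (163995031 to 163995252 on chromosome 1, fold 4.73). This peak began 142 bp downstream of the Mettl18 start and was the closest to a start among the 34 members with a listed start site. Of the 10 members without one, Mettl15 had a KO peak 4 bp from a gene end and Mettl21c a WT peak 256 bp from one. Mettl21c and Mettl21e, both known from muscle, had KO peaks of 4 and 4 fragments in Mettl21c and 1 of 6 in Mettl21e (fold 4.46), and WT peaks of 7 in Mettl21c (fold 4.68) and of 9 and 4 in Mettl21e. The WT peak of 9 fragments stood over a background of 2.90 fragments, so its fold was only 2.56. Mettl11b, an N-terminal methyltransferase gene, had 2 KO and 2 WT peaks, all of 4 fragments. Mettl9, a histidine methyltransferase gene, had 1 KO and 2 WT peaks, all of 4 fragments.

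Of the rest, Mettl25 had 1 KO peak of 6 fragments (fold 4.01) and no WT peak. Mettl26 had no KO peak and 1 WT peak of 8 fragments (fold 4.38), inside Wfikkn1. Mettl23 had no KO peak and 1 WT peak of 7 fragments (fold 4.10), 4.83 kb above the gene and inside Mfsd11. The neighbours Mettl7a1, Mettl7a2 and Mettl7a3 on chromosome 15 are closely related copies, and none had a peak in either genotype. Their joint window of 67.7 kb would hold 1.21 KO and 1.61 WT peaks at the all-gene rates. How reads that map to several copies were treated is not given in the sources used here, so the lack of peaks there is uncertain. Mettl7b, Mettl17, Mettl22 and Mettl27 also had no peak.

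No KO peak overlapped a WT peak in any member. This was 0 of 37 KO peaks, which allows a share of up to 8.11%, and 0 of 62 WT peaks, which allows up to 4.84%. These limits are 3 counts of the total, a one-sided limit that is tighter than the two-sided exact intervals given elsewhere. Over all gene windows 1.12% of KO peaks and 0.848% of WT peaks overlapped, and of the genes with peaks of both genotypes 4.32% had an overlapping pair, so an absence of overlap among 19 members is near the background. In those 19 members the nearest KO and WT peaks were 1.30 kb (Mettl21e) to 31.9 kb (Ythdc2) apart, with a median of 7.63 kb, and in 7 of them less than 5 kb.

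Some members had peaks near a gene end. In 7 members a KO peak reached into the stretch of 2 kb around a gene end (15.9%, exact binomial interval 6.64 to 30.1%, all genes 8.05%). These were Mettl6, Mettl11b, Mettl15, Hnrnpa2b1, Ythdc1, Ythdc2 and Ythdf1. A WT peak did so in 10 members (22.7%, interval 11.5 to 37.8%, all genes 14.7%), which were Mettl3, Mettl8, Mettl18, Mettl21a, Mettl21c, Mettl26, Cbll1, Igf2bp1, Wtap and Ythdf2. Both intervals hold the all-gene shares. No member was in both lists (0 of 44, exact binomial interval 0 to 8.04%), and over all genes 1.52% were, so an empty overlap is near the background. Within 2 kb of a listed start, a KO peak was found in 4 of 34 members (all genes 4.73%), Mettl6, Mettl11b, Ythdc1 and Ythdf1, and a WT peak in 1 (all genes 8.60%), Mettl18. The exact binomial intervals of these shares, 3.30 to 27.5% in KO and 0.0744 to 15.3% in WT, hold the all-gene values. Most peaks lay in gene bodies, 31 of 37 in KO (83.8%) and 48 of 62 in WT (77.4%), where the gene made up 81.5% of the window length.

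**Figure D4:**
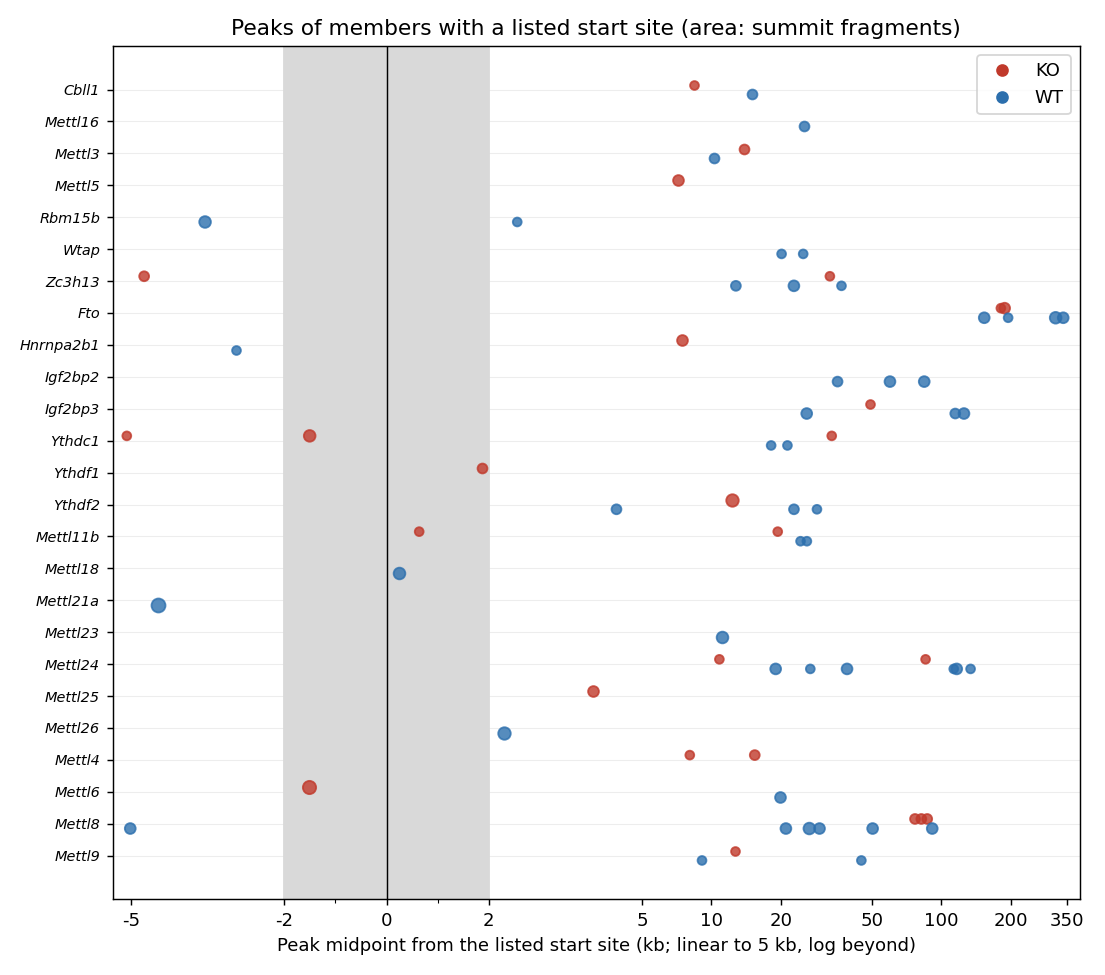
Each dot is a peak of a member with a listed start site, at the distance of its midpoint from that site in kb (linear to 5 kb, log beyond, negative upstream), KO in red and WT in blue, with dot area in proportion to summit fragments. The grey band marks 2 kb on either side, where 4 KO peaks and 1 WT peak lie, and red and blue dots of a gene do not coincide.

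The peaks over members were low, at 4 to 9 summit fragments in KO and 4 to 10 in WT, with a median of 5 in both. A local background of 1.45 fragments or more lay under 8 of the WT peaks and 0 of the KO peaks. The list medians were 0.692 in WT and 0.568 in KO, so summit height alone does not rank the peaks. Peaks of 5 fragments or more made up 51.4% of the KO peaks (34.4 to 68.1%) and 64.5% of the WT peaks (51.3 to 76.3%), where they were 60.7% of the KO and 65.7% of the WT peaks over all gene windows. When a caller q of at most 0.05 was required, there were 10 KO peaks in 9 members (20.5%, all genes 16.7%) and 8 WT peaks in 8 members (18.2%, all genes 11.9%). These peaks had 6 to 9 fragments in KO and 7 to 10 in WT. Fto was the member with such peaks in both genotypes, 1 of 44 (2.27%, all genes 5.05%). Over all gene windows 29.2% of the KO peaks and 10.8% of the WT peaks met this limit, so KO peaks passed more often at large. Readers accounted for 4 of the 9 KO members, Hnrnpa2b1, Ythdc1, Ythdf2 and Ythdf3, and 0 of the 8 WT members. The KO members were completed by Mettl5, Mettl6, Mettl15 and Mettl21e, and the WT members were Virma, Rbm15b, Mettl8, Mettl18, Mettl21a, Mettl21c and Mettl26 besides Fto. The difference between readers and other roles was not tested, since each genotype had 1 library.

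**Figure D5:**
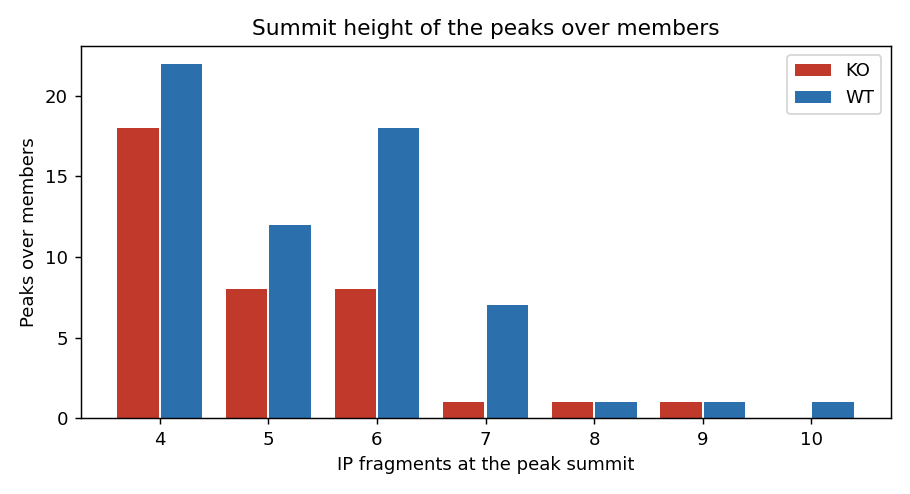
Bars give the number of peaks over the 44 members at each summit height in IP fragments, KO in red and WT in blue. Peaks of 4 fragments number 18 in KO and 22 in WT, and peaks of 6 fragments 8 in KO and 18 in WT. Heights are not scaled between the libraries and do not take the local background into account.

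A list of 19 other genes of the pathway held further RNA methyltransferase genes, binding proteins, the Alkbh relatives, the genes for making S-adenosylmethionine, and Ahcy. Of these genes, 6 had a KO peak and 8 a WT peak, 31.6% in KO and 42.1% in WT, where all genes had 34.3% in KO and 49.4% in WT. They held 9 KO and 9 WT peaks, or 15.9 per Mb in each (7.28 to 30.2). Mat1a, the synthetase gene for S-adenosylmethionine in adult liver, had 2 KO peaks and no WT peak, and Mat2a had 1 KO peak and no WT peak. Ahcy, which clears the product of methylation, had no KO peak and 1 WT peak. The KO to WT ratio of peak number was 1.00 for this list (0.352 to 2.84) and 0.597 for the members, and the intervals overlap.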

How the data were processed

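H3K23pr was mapped by ChIP-seq in liver chromatin fixed with formaldehyde and sonicated, per the labels' protocols. Trimming used cutadapt 1.9.3 and alignment to mm10 used Bowtie2 2.2.4, per the submitters' processing notes. Narrow peaks were called per library with MACS 2.1.1.20160309, each IP against its input at a p cutoff of 0.001, per the file headers. After duplicate filtering the IPs held 15468265 KO and 13615838 WT fragments, of 71 bp in KO and 97 bp in WT on average, and the lists 41907 KO and 54397 WT peaks.

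The authors' pileup is a signal, IP fragments over the summit, unscaled between libraries. Their deposited fold is the ratio of pileup to local background after a small constant is added to both, so it is smaller than the plain ratio. The p-values and q-values are deposited as −log10. Headers state that no q was computed, yet the column is filled. These values describe peaks within a list only.

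Overlaps were counted in Python 3.11.15 with pandas 2.3.3, checked on simulated peaks, against RefSeq genes of GRCm38.p6, the assembly of mm10. Rates use the merged window length. Distances to a start are from the peak midpoint, or from its edge for the 2 kb limit. Exact 95% intervals are Clopper-Pearson or Poisson, and no p-value was computed. The rule for full values named Mettl3, Mettl14, Fto, Alkbh5, members with peaks near a gene end and, per role and genotype pattern, up to 3 members with the lowest caller p. Members and lists were chosen with earlier results of these data known. Alternatives varied the window, the peaks used, the overlap rule and the members.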

Additional observations from a re-analysis of the deposited data

How the results depend on the processing

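With 1 library per genotype, no library could be left out. No paired analysis was possible because each genotype had 1 library. Of 120 values under 8 alternative settings, 97 stayed close to those given above, and 0 members had overlapping KO and WT peaks under each of the 8. The number of peaks rests on weak calls. At 5 or more fragments, 15 members had a KO peak and 9 had peaks of both genotypes, at 8.02 KO and 16.9 WT peaks per Mb, with 3 writers and 6 other Mettl genes in KO and 5 readers in WT. All gene windows, 1123 Mb, held 12193 KO and 17510 WT peaks at that limit. The share of all genes with such a peak was not computed, so these member counts have no background beside them. At a caller q of 0.05 or smaller, the KO to WT ratio turned round to 1.25, with 10 KO and 8 WT peaks, or 4.22 KO and 3.38 WT peaks per Mb. All gene windows held 5858 KO and 2877 WT peaks at that limit, so KO peaks outnumbered WT peaks there too. Then 9 members had a KO peak, 8 a WT peak and 1 both, with 1 writer in KO and 2 in WT, 4 readers in KO and 0 in WT, and 3 other Mettl genes in KO and 5 in WT. With the strongest 40000 peaks of each list, the ratio was 0.923, at 16.5 WT peaks per Mb. In WT the cut at 40000 fell among peaks of equal caller p, which begin at rank 32670. Those were kept in order of chromosome name and position, so this setting did not select WT peaks by strength alone. Its ratio depends on that order. The cause of these changes was not tested beyond the peaks each setting drops. Without Fto, 0 erasers had a KO peak and 0 a WT peak. Windows of 2 kb, the gene body alone, peak midpoints and symbols of Mettl and digits only changed none of the values beyond these limits, which were 1.5 times for a count and the 95% interval for a rate or ratio. The lowest peaks of both lists had 4 fragments, and no setting varied the depth of the libraries.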
